A study of Mus musculus with 9 samples.

Results

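The tumor necrosis factor (TNF) superfamily consists of ligands, mostly trimeric proteins of the cell membrane that can be shed, and of receptors with cysteine-rich extracellular domains. Receptors with a death domain can start apoptosis or necroptosis through FADD, caspase-8 and RIPK1, most of the others bind TRAF adaptors and activate NF-kappaB, and decoy receptors bind ligand without passing on a signal. In the liver, TNF and FAS ligand are known as mediators of hepatocyte death, lymphotoxin signaling as a regulator of regeneration and inflammation, and the TWEAK receptor FN14 as a marker of injury and progenitor cell growth. The genes described here are the protein-coding rows of the deposited table named Tnfsf or Tnfrsf followed by a digit, with Tnf, Lta, Ltb, Ltbr, Cd40, Cd40lg, Fas, Fasl, Cd27 and Cd70 added by name. These were 25 of the 16755 genes in the table, 8 ligands and 17 receptors. Of 41 superfamily genes listed by role, the other 16 were not analysed here, among them Lta, Cd40lg, Cd70, Tnfsf11 (RANK ligand) and the 3 receptors of BAFF and APRIL.

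Polyadenylated RNA was measured in liver of male mice in 3 groups of 3 samples each. Their strain is C57BL/6 in the labels and C57BL/6J in the study's methods. Scd2f/f mice carried Scd2 with a floxed exon and no Cre, and were either untreated or given diethyl nitrosamine (DEN, a hepatic carcinogen, 10 mg/kg at 2 weeks of age) and Western alcohol diet (WAD, a diet of lard, cholesterol and alcohol) from the age of 6 weeks, for 4 months according to the labels, while the study's methods give a longer feeding time. The labels repeat this protocol for the untreated samples, which were grouped by their treatment label, Untreated. Scd2f/f;Col1a1-Cre mice (Scd2f/f;CC below) received the same DEN and WAD, and their Cre was driven by the Col1a1 promoter, used by the study to target activated hepatic stellate cells (HSC) and active in other fibroblasts too. All 3 groups share the floxed allele, no group carried Cre without DEN and WAD, and the study's results call the treated tissue tumor-adjacent liver, while its sequencing methods call it NTL. Each value is the authors' mean of normalized counts over the 3 samples of a group. No difference below is backed by a spread, an error or a test, since only these means were analysed, and the depth of each sample is unknown. Albumin (Alb) had means of 21300, 20900 and 22700 in untreated Scd2f/f, treated Scd2f/f and treated Scd2f/f;CC liver, the order used for all trios of values below. Scd2, the targeted gene on chromosome 19 from 44293676 to 44306865 (GRCm38), had means of 2.46, 6.47 and 1.87, so the treated Scd2f/f;CC mean was 0.289 of that of treated Scd2f/f liver.

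The 25 genes covered a wide range of levels. Of these, 12 averaged at least 1 normalized count over the 3 groups and 13 averaged less. In untreated liver 14 of the 25 (56.0%) had a mean under 1, against 31.1% of all genes in the table. Divided by merged exon length, the highest levels in untreated liver were those of Ltbr, the lymphotoxin beta receptor, at 16.7 normalized counts per kb, Tnfrsf1a, the TNF receptor with a death domain, at 14.4, and Tnfrsf12a, which encodes FN14, at 6.94. Tnfrsf1b, the TNF receptor without a death domain, followed with 3.88 per kb and Fas, the death receptor of FAS ligand, with 3.37. In treated Scd2f/f liver the order per kb was Ltbr at 16.9, Tnfrsf1a at 11.5, Fas at 5.92 and Tnfrsf1b at 4.24, and Tnfrsf12a was in the sixth place with 1.93. The same 4 genes led in treated Scd2f/f;CC liver, where Tnfrsf12a was eighth with 1.08 per kb. The ligands with the highest levels per kb in untreated liver were Tnfsf12 (TWEAK), at 2.17, and Tnfsf10 (TRAIL), at 0.948. Without a spread between samples, neighbors in these orders cannot be said to differ.

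**Figure D1:**
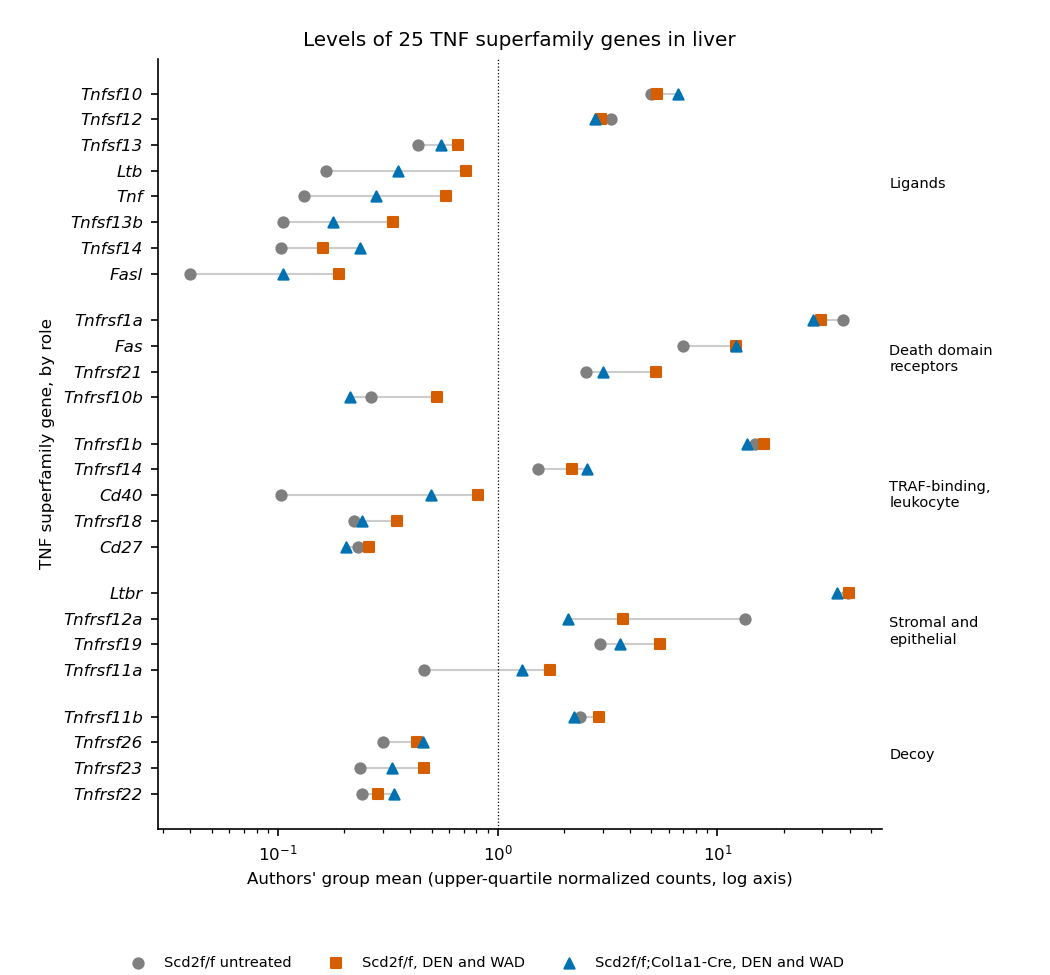
Authors' group means of the 25 TNF superfamily genes on a log axis, in upper-quartile normalized counts, with genes sorted by role and then by their average. Gray circles are untreated Scd2f/f, orange squares treated Scd2f/f and blue triangles treated Scd2f/f;CC liver, each the mean of 3 samples with no spread shown, and the dotted line marks 1 normalized count. Tnfrsf12a is highest in untreated liver, at 13.4, while most of the 25 genes are lowest there, among them Cd40, Ltb, Tnf, Fasl and Tnfrsf11a.

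The first comparison, treated against untreated Scd2f/f liver, addresses what the DEN and WAD regimen changed. Of the 25 genes, 22 had a higher mean after DEN and WAD and 3 a lower one (Tnfrsf1a, Tnfsf12 and Tnfrsf12a), with a median log2 ratio of 0.64. Over all 16755 genes 53.7% were higher, with a median of 0.04. A difference of at least 2-fold in either direction was called, without a test. Among the 12 genes averaging at least 1, 2 were higher by this limit and 1 was lower, beside 6.40% and 2.89% of the 11784 genes of that level. Among the 13 averaging less, 5 were higher and 0 lower, beside 16.4% and 8.93% of 4971 genes. Tnfrsf11a reached an average of 1 only through its treated groups.

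Of the 7 genes past 2-fold in that direction, 4 were ligands, all known from leukocytes. Tnf had means of 0.132, 0.579 and 0.28, a 4.39-fold higher mean in treated than in untreated Scd2f/f liver. Ltb, the membrane-anchoring subunit of lymphotoxin, had means of 0.166, 0.715 and 0.352, a 4.31-fold difference. The values of both genes were lowest in untreated and highest in treated Scd2f/f liver, with treated Scd2f/f;CC liver between them. Fasl, the FAS ligand of cytotoxic lymphocytes, had means of 0.04, 0.19 and 0.105. The untreated value is the lowest that any gene has in that group, shared by 118 genes, so no fold is given for Fasl, although it counts as past 2-fold. Tnfsf13b, which encodes the B cell survival factor BAFF, had means of 0.106, 0.333 and 0.178, a 3.14-fold difference, and is named after its value was seen. All 4 of these ligands stayed under 1 normalized count in every group. The log2 ratio of Tnf was 2.13, or 0.48 after adding 1 to the means, and that of Ltb was 2.11, or 0.56.

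The other ligands stayed within 2-fold between treated and untreated Scd2f/f liver. Tnfsf10, the ligand of the TRAIL receptors, had means of 4.99, 5.28 and 6.63, highest in treated Scd2f/f;CC liver. Tnfsf12 had means of 3.29, 2.96 and 2.77. Tnfsf13, which encodes the plasma cell factor APRIL, had means of 0.436, 0.659 and 0.555. Tnfsf14 (LIGHT), a ligand of HVEM and the lymphotoxin beta receptor, had means of 0.103, 0.161 and 0.237, highest in treated Scd2f/f;CC liver. Tnfsf12 and Tnfsf13 are neighbors on the minus strand of chromosome 11 and share 48.3% and 60.1% of their merged exon length with Tnfsfm13, a transcript that joins both genes. Reads of the 3 genes can therefore have been split between them, and the library kit does not mark strand, so reads of the antisense gene Tnfsf13os cannot be told apart either. Tnfsfm13 had means of 1.43, 1.87 and 2, and Tnfsf13os of 0.0937, 0.207 and 0.13.

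Among the receptors with a death domain, Tnfrsf21 (DR6) had means of 2.51, 5.23 and 3.02, a 2.08-fold higher mean in treated than in untreated Scd2f/f liver. Fas had means of 6.95, 12.2 and 12.1, a 1.76-fold difference that both treated groups shared. Tnfrsf10b, the mouse TRAIL death receptor, had means of 0.264, 0.527 and 0.213, and its difference fell just short of 2-fold, with a log2 ratio of 0.9973, just under the limit of 1. Tnfrsf1a was lower, with means of 37.2, 29.7 and 27.1. It had the highest level per kb of the 4 and was the only 1 with a lower mean after DEN and WAD.

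Cd40, the receptor by which antigen-presenting cells receive T cell help, had the highest ratio of the 25 genes when nothing was added to the means. Its means were 0.103, 0.815 and 0.495, a 7.91-fold higher mean in treated than in untreated Scd2f/f liver, or a log2 ratio of 2.98. With 1 added to each mean its log2 ratio was 0.72, under those of Tnfrsf11a (0.90), Tnfrsf21 (0.83), Fas (0.7315) and Tnfrsf19 (0.7221 beside 0.7185 for Cd40). Tnfrsf1b, which is found on myeloid cells and regulatory T cells, had means of 14.8, 16.2 and 13.6. Tnfrsf14 (HVEM) had means of 1.52, 2.18 and 2.54. The costimulatory receptors of T cells Tnfrsf18 (GITR) and Cd27 had means from 0.204 to 0.347 in all groups. For Tnfrsf18, 27.2% of the exon length is shared with the antisense gene Gm16008, which had means of 0.171, 0.0951 and 0.1.

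Receptors of stromal, epithelial and bone cells differed in both directions. Tnfrsf12a was 3.59-fold lower in treated than in untreated Scd2f/f liver, with means of 13.4, 3.73 and 2.08. It was the only gene of the 25 that was lower by at least 2-fold in this comparison, and its treated Scd2f/f;CC mean lay 6.44-fold under that of untreated liver. Tnfrsf11a, which encodes RANK, the receptor of osteoclast development, had means of 0.463, 1.73 and 1.29, a 3.74-fold higher mean in treated Scd2f/f liver. Tnfrsf19 (TROY) had means of 2.91, 5.45 and 3.62, a 1.87-fold difference. Ltbr had means of 39.2, 39.7 and 35.1, within 2-fold of each other.

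None of the decoy receptors differed by 2-fold in this comparison. Tnfrsf11b, which encodes osteoprotegerin, the soluble decoy of RANK ligand and TRAIL, had means of 2.37, 2.9 and 2.22. Tnfrsf23 and Tnfrsf22, decoy receptors of TRAIL in the mouse, had means of 0.236, 0.464 and 0.332 and of 0.242, 0.286 and 0.337. Tnfrsf26, listed with them for its place in the same cluster, had means of 0.3, 0.43 and 0.455. These 3 genes are similar copies on chromosome 7, so reads can have been assigned to the wrong copy.

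**Figure D2:**
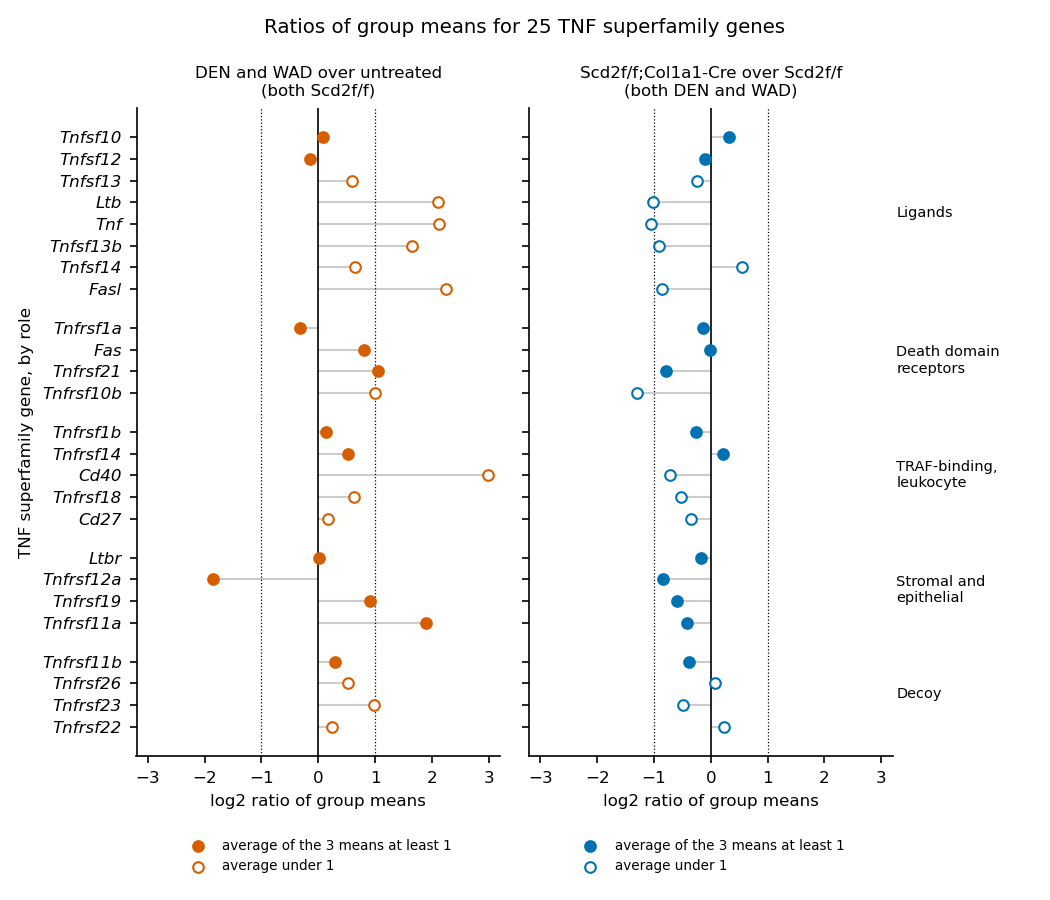
Log2 ratios of the authors' group means for the 25 genes, with treated over untreated Scd2f/f liver on the left and treated Scd2f/f;CC over treated Scd2f/f liver on the right. Filled points are the 12 genes averaging at least 1 normalized count, open points the 13 averaging less, and dotted lines mark a 2-fold difference in either direction. On the left 22 of 25 points lie above 0 and Tnfrsf12a stands lowest at -1.85, on the right 20 of 25 lie below 0 and Tnfrsf10b stands lowest at -1.31.

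The second comparison, treated Scd2f/f;CC against treated Scd2f/f liver, sets mice with Col1a1-Cre beside mice without it under the same regimen. No group carried Cre with intact Scd2, so the loss of Scd2 and Cre itself cannot be told apart. Of the 25 genes, 20 had a lower mean in Scd2f/f;CC and 5 a higher one, with a median log2 ratio of -0.39. Over all genes 49.6% were lower and the median was 0. Among the 12 genes averaging at least 1, 0 were higher and 0 lower by at least 2-fold, beside 0.645% and 1.54% of genes of that level. Among the 13 averaging less, 0 were higher and 3 lower, beside 4.61% and 10.1%. Both comparisons use the same mean of treated Scd2f/f liver, so a value that is high there by sampling raises the first ratio and lowers the second.

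The 3 genes lower by at least 2-fold were Tnfrsf10b, Tnf and Ltb. The mean of Tnfrsf10b was 2.47-fold lower, that of Tnf 2.07-fold and that of Ltb 2.03-fold. All had a mean under 1 in treated Scd2f/f liver, and with 1 added to each mean their log2 ratios were -0.33, -0.30 and -0.34. Of the more abundant genes, the largest differences were those of Tnfrsf12a, from 3.73 to 2.08 (1.79-fold lower), Tnfrsf21, from 5.23 to 3.02 (1.73-fold lower), and Tnfrsf19, from 5.45 to 3.62 (1.51-fold lower). Tnfrsf1a, Tnfrsf1b and Ltbr were lower by 1.10-fold, 1.19-fold and 1.13-fold, and Fas had nearly equal means, 12.2 and 12.1. The 5 higher genes were Tnfsf14, with a log2 ratio of 0.56, Tnfsf10 with 0.33, Tnfrsf22 with 0.24, Tnfrsf14 with 0.22 and Tnfrsf26 with 0.08. Each of these ratios was under 1.5-fold.

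Set directly beside untreated Scd2f/f liver, treated Scd2f/f;CC liver had a higher mean for 17 of the 25 genes and a lower one for 8, with a median log2 ratio of 0.41 against 0.05 over all genes. Among the 12 genes averaging at least 1, Tnfrsf11a was higher and Tnfrsf12a lower by at least 2-fold, beside 4.51% and 2.55% of genes of that level. Tnfrsf11a reached that level only through its treated groups. Among the 13 others, 5 were higher and 0 lower, beside 10.9% and 9.58%. These 5 were Cd40, with a log2 ratio of 2.27, Fasl, whose untreated mean is the lowest value of that group, Tnfsf14 with 1.20, named after its value was seen, and Tnf and Ltb, both with 1.08. Tnfrsf21, Tnfrsf19 and Tnfrsf11b had log2 ratios of 0.27, 0.32 and -0.09.

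Ligands and receptors were also set side by side. Of 27 known pairs, both genes were present for 11. In 4 of these, which involve Tnf (in both of its pairs), Ltb and Fasl, the ligand was higher by at least 2-fold in treated than in untreated Scd2f/f liver, and in 0 of the 11 was the receptor. The 3 receptors past 2-fold, Cd40, Tnfrsf11a and Tnfrsf21, were in none of the 11 pairs, so the count says nothing on receptors as a whole. The 3 ligands average under 1, where 16.4% of all genes were higher by that limit. Tnf had a log2 ratio of 2.13, while its receptors Tnfrsf1a and Tnfrsf1b had -0.32 and 0.13. Ltb had 2.11 and Ltbr 0.02. For TRAIL the order was the other way round, with 0.08 for Tnfsf10 and 0.9973 for Tnfrsf10b. For TWEAK and FN14, the ligand Tnfsf12 had -0.15 and the receptor Tnfrsf12a -1.85. Other pairs were closer, such as Tnfsf14 and Tnfrsf14, with 0.64 and 0.52, and Tnfsf10 and Tnfrsf22, with 0.08 and 0.24. Both genes were higher in treated than in untreated Scd2f/f liver in 9 of the 11 pairs. Both were lower in treated Scd2f/f;CC than in treated Scd2f/f liver in 5 of the 11. Of all single genes, 53.7% were higher in the first of these comparisons and 49.6% lower in the second. A pair counts only where both genes agree, and several pairs share a gene, so these shares are no measure for the counts of pairs.

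**Figure D3:**
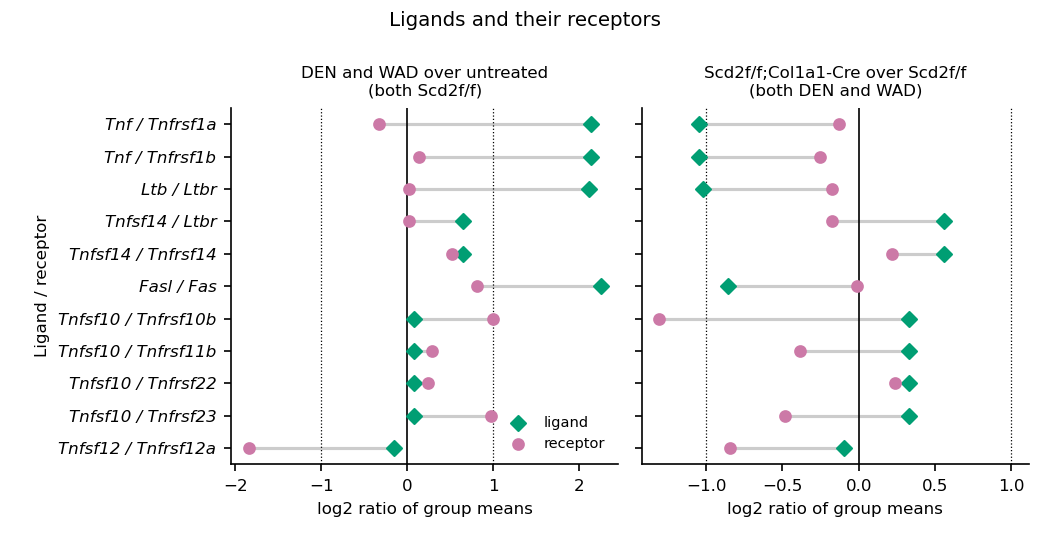
Log2 ratios of the authors' group means for 11 ligand and receptor pairs, on the left for treated over untreated Scd2f/f liver and on the right for treated Scd2f/f;CC over treated Scd2f/f liver. Green diamonds are ligands, pink circles receptors, and a gray line joins a pair, while dotted lines mark a 2-fold difference. On the left the ligands Tnf, Ltb and Fasl lie right of their receptors, and Tnfrsf12a lies at -1.85 beside -0.15 for Tnfsf12.

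Several of the genes are neighbors on the genome (GRCm38). Ltb (plus strand, 35194439 to 35196321) and Tnf (minus strand, 35199381 to 35202008) lie 3.06 kb apart on chromosome 17. Their log2 ratios were close in both comparisons, 2.11 and 2.13 in the first and -1.02 and -1.05 in the second. On chromosome 6, Cd27, Ltbr and Tnfrsf1a follow each other with gaps of 69.6 and 35.5 kb, and their ratios in the first comparison ran from -0.32 to 0.17. On chromosome 7, Tnfrsf26, Tnfrsf22 and Tnfrsf23 lie 6.08 and 16.2 kb apart. Their log2 ratios were 0.52, 0.24 and 0.98 in the first comparison and 0.08, 0.24 and -0.48 in the second. The closest neighbors, Tnfsf13 and Tnfsf12 on chromosome 11, lie 0.465 kb apart. They had log2 ratios of 0.60 and -0.15 in the first comparison and -0.25 and -0.10 in the second. Chromosome 17 holds 5 of the 25 genes, Ltb, Tnf, Tnfrsf12a, Tnfrsf21 and Tnfsf14, the most of any chromosome.

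Promoter sequences from RefSeq (GRCm38.p6), from 250 bases before to 50 after the start of transcription, were found for 19 of the 25 genes, in 21 windows. The letters of the kappaB consensus, the binding motif of NF-kappaB, were found on either strand in the window of 1 gene, Ltb, with the first base at -87, and in 8.46% of all 32851 windows. TATAAA, the letters of the TATA box, were found on either strand for Tnf, at -29, and Tnfrsf23, and in 13.6% of all windows. TGANTCA, the AP-1 motif, which reads alike on both strands, was found for Fas, Tnfsf13, Tnfsf13b and Tnfsf14, and in 7.81% of all windows. No gene held more than 1 of the 3 motifs, so no matches of different motifs overlapped, and a match is no sign of binding. The windows of Ltb and Tnf are shown because these neighbors had similar ratios, and that of Tnfrsf12a because it was the gene with the lowest ratio, each 5′ to 3′ on its own strand, with letters of the kappaB consensus or TATAAA in capitals.
Ltb, chr17:35194257-35194556, plus strand: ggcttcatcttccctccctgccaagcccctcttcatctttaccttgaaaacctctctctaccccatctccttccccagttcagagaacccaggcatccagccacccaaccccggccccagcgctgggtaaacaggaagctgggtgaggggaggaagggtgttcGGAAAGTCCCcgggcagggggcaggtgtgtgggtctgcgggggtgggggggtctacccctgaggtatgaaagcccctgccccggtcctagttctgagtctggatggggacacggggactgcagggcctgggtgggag
Tnf, chr17:35201958-35202257, minus strand: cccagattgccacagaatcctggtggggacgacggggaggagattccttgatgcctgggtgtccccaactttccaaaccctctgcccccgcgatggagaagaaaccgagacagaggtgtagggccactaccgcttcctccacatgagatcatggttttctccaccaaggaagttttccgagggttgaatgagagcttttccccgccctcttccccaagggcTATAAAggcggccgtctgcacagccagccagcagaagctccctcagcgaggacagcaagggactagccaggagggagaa
Tnfrsf12a, chr17:23677400-23677699, minus strand: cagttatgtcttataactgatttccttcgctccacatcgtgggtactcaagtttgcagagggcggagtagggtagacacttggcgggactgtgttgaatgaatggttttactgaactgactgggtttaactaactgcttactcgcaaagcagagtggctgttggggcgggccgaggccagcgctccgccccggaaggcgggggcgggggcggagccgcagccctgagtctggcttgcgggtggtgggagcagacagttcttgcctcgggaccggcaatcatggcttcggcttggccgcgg

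The genes that carry the signal inside the cell were compared next. Of 26 adaptors and proximal kinases, 3 were higher and 0 lower by at least 2-fold in treated than in untreated Scd2f/f liver, with a median log2 ratio of 0.07. Of the 24 averaging at least 1 this was 1, beside 6.40% of all genes of that level, and both of the others averaged less, where 16.4% of all genes passed. The largest difference was that of Tnfaip3, which encodes A20, an inhibitor of NF-kappaB that NF-kappaB itself induces, with means of 1.78, 7.7 and 2.92. The others past 2-fold, Traf1 and Ripk3, are named after their values were seen, and both had means under 1 in every group. Tab2, an adaptor of the kinase TAK1, had means of 23.5, 40.2 and 36.7. Tnip1, a partner of A20, had means of 3.58, 6.43 and 5.01, and Mlkl, the effector of necroptosis, 2.86, 5.17 and 3.75. Tnfaip3 alone of the 26 was lower by at least 2-fold in treated Scd2f/f;CC than in treated Scd2f/f liver (2.64-fold), and the median was -0.07. It is 1 of the 24 averaging at least 1, where 1.54% of all genes were lower. Traf4 had means of 12.1, 12.3 and 9, and Map3k14, the kinase of the noncanonical NF-kappaB pathway, 1.58, 2.98 and 2.08.

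Of 11 NF-kappaB subunits, inhibitors and kinases, 3 were higher by at least 2-fold after DEN and WAD, with a median log2 ratio of 0.34. All 11 average at least 1, where 6.40% of all genes were higher by that limit, but Relb does so only through the treated groups. These were Relb, a subunit of the noncanonical pathway downstream of the lymphotoxin beta receptor, CD40 and RANK, with means of 0.526, 2.32 and 1.32, its partner Nfkb2, with 2.87, 5.96 and 4.45, and the inhibitor Nfkbie, with 1.27, 2.8 and 2.04. The inhibitor Nfkbia had means of 14.8, 23.8 and 19.9. Of these 11 genes 0 differed by 2-fold between treated Scd2f/f;CC and treated Scd2f/f liver, where the median was -0.19. At that level 0.645% of all genes were higher and 1.54% lower, so a count of 0 is near that of all genes.

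Of 18 targets of NF-kappaB, 15 were found and 13 were higher by at least 2-fold in treated than in untreated Scd2f/f liver, with a median log2 ratio of 1.77. These were 7 of the 9 averaging at least 1, beside 6.40% of all genes of that level, and 6 of the 6 averaging less, beside 16.4%. Among the 7, Cxcl10 and Il1b reached an average of 1 only through the treated groups. Lcn2, which encodes an acute phase protein, had means of 5.21, 41.8 and 14.1, and Cxcl10, a T cell chemokine, 0.739, 5.97 and 3.94. Saa3, another acute phase gene, had means of 4.97, 16.2 and 13, and Vcam1, an adhesion molecule for leukocytes, 9.41, 27.6 and 13.5. Between the treated groups, 7 of the 15 were lower by at least 2-fold in Scd2f/f;CC, with a median of -0.92. These were 3 of the 9 and 4 of the 6, beside 1.54% and 10.1% of all genes of those levels, among them Lcn2, Vcam1, the neutrophil chemokine Cxcl1, with means of 11.8, 17.5 and 5.04, and the chemokine Ccl5, with 0.35, 1.92 and 0.596. These targets also answer to other stimuli and differ in the cells that express them.

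Of the 6 proteases and regulators that process the ligands and receptors, Rhbdf2, a cofactor of the TNF sheddase ADAM17, was higher by at least 2-fold after DEN and WAD, with means of 3.52, 7.61 and 5.11, at a level where 6.40% of all genes were higher. Adam17 itself had means of 13.9, 18.6 and 15.8, and Rhbdf1, a relative of Rhbdf2, 2.9, 3.32 and 2.05. Mmp7 was the only gene of these that was lower by at least 2-fold in treated Scd2f/f;CC than in treated Scd2f/f liver, with means of 0.405, 0.455 and 0.0484, at a level where 10.1% of all genes were lower. Superfamily genes with other names were also in the table. Ngfr, the low-affinity neurotrophin receptor known from HSC, had means of 1.49, 3.25 and 2.37, and Eda2r, a p53-induced receptor of ectodysplasin, 0.984, 2.34 and 1.66. Relt had means of 0.137, 0.289 and 0.212, so 3 of the 4 such genes found were higher by at least 2-fold in treated than in untreated Scd2f/f liver, and Eda, with 0.71, 1.08 and 1.36, was not. Relt belongs to the genes averaging under 1, of which 16.4% were higher by that limit, and the other 3 to those averaging at least 1, of which 6.40% were, though Eda2r and Eda only through the treated groups. Between the treated groups 0 of the 4 differed by 2-fold. Of all genes averaging at least 1, 0.645% were higher and 1.54% lower there, and of those averaging less 4.61% and 10.1%.

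Markers of the cells that could express these genes differed as well. In bulk tissue, fewer cells of a type and less RNA per cell cannot be told apart. Marker means and sums, here and in the next paragraph, were not divided by exon length. Which marker is called most abundant, highest or leading therefore refers to mean counts only and can depend on gene length. All 10 macrophage markers were higher by at least 2-fold in treated than in untreated Scd2f/f liver, with sums of 77.8, 295 and 258 over the list, the marker with the highest average being Cd5l, with means of 22.9, 114 and 99. Of 8 markers of T and NK cells found, 7 were higher by at least 2-fold, with sums of 1.73, 5.93 and 3.47, as for Cd3e, with means of 0.226, 1.25 and 0.545, and the most abundant on average was Cd4. All 3 neutrophil markers were higher, with sums of 1.04, 4.27 and 3.46, 2 averaging at least 1 and 1 less. Of these S100a9 had the highest average, but Csf3r the higher untreated mean (0.477 beside 0.355). Of 5 dendritic cell markers 3 were higher, 1 of the 3 averaging at least 1 and 2 of the 2 averaging less. Their list had sums of 4.26, 9.68 and 6.23. Zbtb46 had its highest average, but Itgax a higher mean in treated Scd2f/f liver (3.66 beside 3.35). Of 6 B cell and plasma cell markers 2 were past 2-fold, both among the 5 averaging under 1. The sums of all 6 were 5.16, 5.71 and 4.91, with Jchain the most abundant. None of these markers was listed at 0. All 8 markers of T and NK cells averaged under 1, where 16.4% of all genes were higher by 2-fold, and 9 of the 10 macrophage markers averaged at least 1, where 6.40% were. The same 2 shares apply to the neutrophil, dendritic cell and B cell markers of each level. Ccr2 and Itgam of macrophage markers, Csf3r and S100a9 of neutrophils and Itgax of dendritic cells reached an average of 1 only through treated groups. Gpnmb did so only through treated Scd2f/f liver.

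Of the 10 markers of HSC and fibroblasts, 3 were higher by at least 2-fold after DEN and WAD, all among the 9 averaging at least 1, where 6.40% of all genes were. In treated Scd2f/f;CC against treated Scd2f/f liver 5 were lower, 4 of the 9 averaging at least 1 and the 1 averaging less, where 1.54% and 10.1% of all genes were. Their sums were 202, 342 and 196. Dcn, with means of 70.3, 118 and 67.2, had the highest average over the 3 groups. Reln, with 73, 89.2 and 71.6, had a higher mean count than Dcn in untreated Scd2f/f and in treated Scd2f/f;CC liver, without division by exon length. Col1a1, whose promoter drives the Cre, had means of 4.69, 19.6 and 4.51. Of 6 cholangiocyte markers, 5 were lower by at least 2-fold in treated Scd2f/f;CC than in treated Scd2f/f liver, with sums of 59, 53.9 and 19.2, the most abundant being Spp1. These were 2 of the 3 averaging at least 1 and 3 of the 3 averaging less, beside the same 1.54% and 10.1%. Of the 10 macrophage markers 2 were lower in that comparison, Gpnmb, with means of 0.0937, 8.98 and 0.638, and Trem2, with 0.253, 1.8 and 0.459, and of the T and NK cell markers 3 (Cd8a, Cd3e and Trac). Gpnmb averages at least 1 only through treated Scd2f/f liver, the group it is called lower than, so the share of that level says little about it. Trem2 and the 8 T and NK cell markers average less. For dendritic cells the count was 1 (Itgax, which averages at least 1), and for neutrophils and B cells 0. All these counts stand beside the same 1.54% and 10.1% of all genes. The 6 endothelial markers had sums of 105, 142 and 143, led by Stab2, with 2 higher by 2-fold in the first comparison and 0 past it in the second. All 6 average at least 1, where 6.40% of all genes were higher in the first. In the second 0.645% were higher and 1.54% lower, so a count of 0 is near that of all genes. All 5 proliferation markers were higher by at least 2-fold after DEN and WAD, with sums of 3.45, 15.8 and 9.24, the most abundant being Mki67, and 0 were lower by 2-fold in treated Scd2f/f;CC. Of these 5, 3 average under 1, where 16.4% of all genes were higher in the first comparison and 10.1% lower in the second. The other 2 average at least 1, where 6.40% and 1.54% were, though Top2a does so only through the treated groups. The 6 hepatocyte markers had sums of 30960, 28110 and 31760, led by Alb, and 1 of them, Tat, was lower by at least 2-fold after DEN and WAD, where 2.89% of all genes of that level were. The part of these markers in the ratios of the TNF superfamily genes was not tested.

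**Figure D4:**
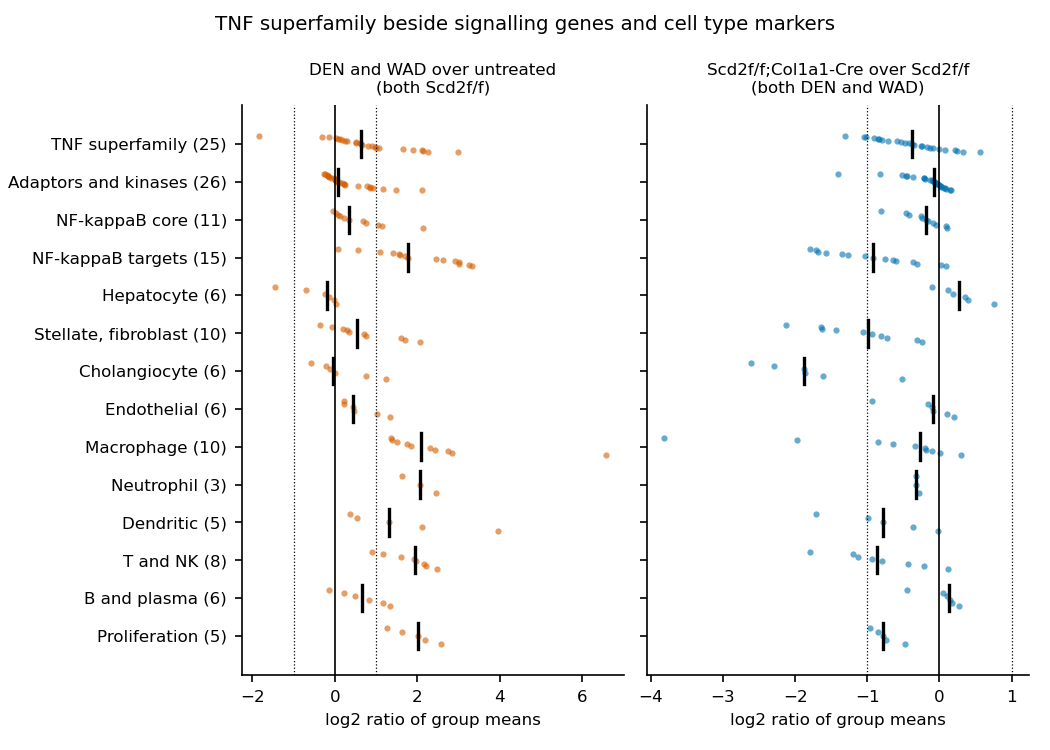
Log2 ratios of the authors' group means for the 25 TNF superfamily genes, for signaling genes and NF-kappaB targets, and for markers of cell types, with the number of genes found in parentheses. Each point is a gene, the black bar the median of the list, and dotted lines mark a 2-fold difference, with treated over untreated Scd2f/f liver on the left and treated Scd2f/f;CC over treated Scd2f/f liver on the right. The TNF superfamily has medians of 0.64 and -0.39, the NF-kappaB targets of 1.77 and -0.92, and the macrophage markers of 2.08 and -0.27.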

How the data were processed

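Total RNA of liver was prepared by the authors with poly(A) selection (Illumina TruSeq v2) and sequenced on a NextSeq instrument. The submitters' processing notes name STAR 2.6.1, Partek 6 and the build mm10, and the study's methods name quantification to Gencode M3 genes by the Partek E/M method, upper quartile normalization and Partek Gene Specific Analysis. The deposited table has 18 columns. Only the signal of each group was used, a least-squares mean of normalized counts that the authors gave with 3 significant digits. The mean of treated Scd2f/f liver stands in the table again for the other comparison, and that repeat was not used. The p-values, FDR, ratios and fold changes of the authors' own comparisons were not used. Filters on genes are not given in the sources used here.

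Ratios of the means were computed without a pseudocount, and a gene was called at 2-fold or more, over genes averaging at least 1 over the 3 groups, and separately over those averaging less. No test was run, since values of single samples were not analysed. The median log2 ratio of genes averaging at least 1 was 0.03, 0.01 and 0.04 in the 3 comparisons. The members and lists were chosen with earlier results of these data known. All members averaging at least 1 are named, with Tnf, Fasl and those under 1 that passed 2-fold with a mean of at least 0.5, and of each list up to 4 genes with the largest log2 ratio after adding 1 to each mean, which favors genes of higher level. Other genes, such as those used to describe a role or a marker list, were chosen after their values were seen. Exon lengths and overlaps came from GENCODE M21 on GRCm38, where 16171 symbols were matched, 99.98% of them at an overlapping position. Alternatives were pseudocounts, filters, other folds and centring. The arithmetic of the call was checked on simulated means without noise, which says nothing on error rates. Python 3.11.15, NumPy 2.4.6, pandas 2.3.3 and Matplotlib 3.10.9 were used.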

Additional observations from a re-analysis of the deposited data

How the results depend on the processing

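The counts rest on genes of low level and on ratios near the limit. In treated against untreated Scd2f/f liver, the 2 genes higher by 2-fold became 0 with 1 added to each mean, 7 with no filter, 0 with an average of at least 5, 4 at a fold of 1.5 and 1 at a fold of 3. The median log2 ratio, 0.21 over the 12 genes averaging at least 1, was 0.64 with no filter and 0.050 with an average of at least 5. In treated Scd2f/f;CC against treated Scd2f/f liver, the 0 genes lower by 2-fold became 3 with no filter and 3 at a fold of 1.5, and the median of -0.22 became -0.39 with no filter. In treated Scd2f/f;CC against untreated liver, the 1 higher gene became 0 with 1 added, 6 with no filter, 0 with an average of at least 5, 3 at a fold of 1.5 and 0 at a fold of 3, and the median of 0.09 became 0.41 with no filter and -0.14 with an average of at least 5. The counts of lower genes in both comparisons with untreated liver were 1 under every setting run, the gene being Tnfrsf12a. Ratios of single genes were run under these settings for the first 2 comparisons, not for treated Scd2f/f;CC against untreated liver. With 1 added to each mean, 10 of those called at 2-fold were no longer past it, and with 0.1 added 2 were. Centring moved no single ratio that was run by over 0.1.

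No paired analysis was possible because the columns are means over the samples of a group and carry no replicate number. For the same reason leaving out each replicate was not run. Depth is unknown, so what it limits could not be computed.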
